A study of Mus musculus with 4 samples.

Results

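A set of 9 small structured RNAs and nuclear long RNAs were compared between genotypes in whole brain of adult female 129SV mice. They are Rmrp, Rpph1, Terc, Rn7sk, Rny1, Rny3, Vaultrc5, Malat1 and Neat1. Total RNA of 2 wild-type and 2 Adar2-/- brains was hybridised to 4 Affymetrix whole-transcript arrays, so that each genotype has 2 arrays. Adar2-/- mice lack ADAR2, the enzyme encoded by Adarb1 that deaminates adenosine to inosine in double-stranded RNA. The study kept Adar2-/- mice alive with a Gria2 allele that already encodes the edited protein (Gria2 R/R). It describes this allele in both genotypes, which were siblings, for the brains used for RNA preparation. For the arrays it says that total RNA was isolated as described, without naming the allele again. The members were found by gene symbol, and all 9 were present in 11 of 33793 transcript clusters, because Rn7sk and Malat1 have 2 each. A transcript cluster is a set of probes summarised to one value, here a normalized log2 signal.

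None of these RNAs is translated. Rmrp is the RNA of RNase MRP, which cuts ribosomal RNA precursors, and Rpph1 is the catalytic RNA of RNase P, which trims the 5′ end of transfer RNA precursors. Terc is the template RNA of telomerase. Rn7sk (7SK RNA) holds the transcription elongation factor P-TEFb in an inactive particle. Rny1 and Rny3 are Y RNAs, which are bound by the Ro60 and La proteins, and Vaultrc5 is the RNA of the vault particle. Malat1 is a long RNA of nuclear speckles, Neat1 is the scaffold of paraspeckles, and RNase P makes the 3′ ends of Malat1 and of the long form of Neat1. RNA polymerase III transcribes Rmrp, Rpph1, Rn7sk, the Y RNAs and the vault RNA, and RNA polymerase II transcribes Terc, Malat1 and Neat1. All of them contain stem structures, the kind of RNA that ADAR proteins bind.

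The stretches upstream of Rpph1 and Rmrp are shown because each is shared with a protein-coding gene on the other strand, whose signal is given further on. The sequences are from RefSeq, build GRCm38.p6, minus strand, read in the direction of the small RNA. The Rpph1 stretch (chr14:50807772-50807896) fills the whole gap of 125 bases between the first base of Rpph1 and the RefSeq start of Parp2. The Rmrp stretch (chr4:43493115-43493339) covers 225 of the 280 bases between Rmrp and Ccdc107, without the 55 bases next to Rmrp. Capitals mark the octamer ATGCAAAT and the TATA box letters TATAAA, searched on both strands.
Rpph1 upstream: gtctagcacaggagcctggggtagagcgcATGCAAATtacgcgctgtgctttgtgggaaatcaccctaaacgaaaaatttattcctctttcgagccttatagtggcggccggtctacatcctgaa
Rmrp upstream: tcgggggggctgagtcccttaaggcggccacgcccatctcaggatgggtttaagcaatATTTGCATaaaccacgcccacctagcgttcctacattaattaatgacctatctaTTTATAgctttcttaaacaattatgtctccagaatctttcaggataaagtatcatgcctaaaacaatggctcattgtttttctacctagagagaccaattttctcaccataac
The octamer, a known element of distal promoters of RNA polymerase III genes of this type, lay 89 bases upstream of Rpph1 and, reversed, 215 bases upstream of Rmrp. These letters are found in 1.74% of 32851 RefSeq promoter windows of 300 bases. The TATA box letters were found once, reversed, 163 bases upstream of Rmrp, and occur in 13.6% of the windows. Only these exact letters were searched, and the 55 bases next to Rmrp were not covered. Whether either RNA has a TATA box in its promoter was therefore not tested. The matches do not overlap each other.

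Adarb1, the targeted gene, read 10.50 and 10.45 in wild type and 9.16 and 8.96 in Adar2-/- brain. The knockout arrays were the lower ones, and the log2 fold change was -1.42 with an SE of 0.12 (limma p 2.57e-05, adjusted p 0.409). Over all clusters, Pearson's r between arrays was 0.993 to 0.995, and the median log2 signal was 6.03 to 6.09. Signals of 4 Y-linked clusters, which female mice lack, ran from 3.49 to 4.40. All 11 member clusters read at least 7.62 on every array, above that background. Brain markers were at high signals on all arrays, the 5 neuronal clusters between 8.68 and 13.16 and the 6 glial clusters between 9.14 and 13.04.

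For 8 of the 9 RNAs no difference between genotypes beyond the error of the arrays was detected, and Rn7sk, at the top of the signal scale, gave no readable comparison. Of the 11 clusters, 0 passed an adjusted p of 0.05 and 0 had an unadjusted limma p below 0.05. Among all clusters the corresponding shares were 0% and 5.95%. The log2 fold change was above 0 in 7 of 11 clusters, against 50.8% of all clusters, with a median of 0.17 against 0.005. This count depended on single wild-type arrays. Without wild type replicate 1, Rmrp (-0.03), Rny1 (-0.33) and Rny3 (-0.26) fell below 0. Without wild type replicate 2, Rpph1 (0.11), Terc (0.41) and the chromosome 15 Rn7sk cluster (0.05) rose above 0. The genotypes did not overlap in 3 of 11 clusters, against 34.1% of all clusters. With 2 against 2 arrays an exact permutation test cannot go below 0.333, and p-values measure only the spread between these arrays. Whole-brain RNA cannot tell fewer cells of a type from less RNA per cell.

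**Figure D1:**
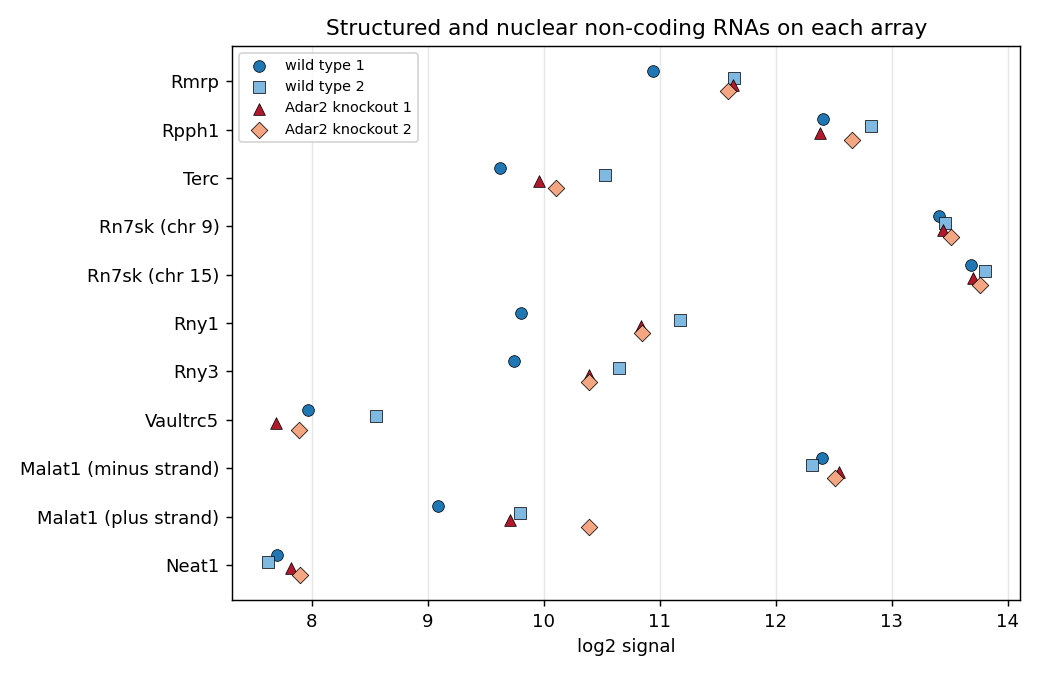
Log2 signal (x axis) of each of the 11 member clusters (y axis) on the 4 arrays, 1 symbol per array. For Rmrp, Rny1, Rny3, Terc and the plus-strand Malat1 cluster the circle of wild type 1 lies to the left of the other 3 symbols; levels of different clusters are not comparable with each other.

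RNase MRP and RNase P share most of their proteins, but their RNAs showed different patterns over the arrays. Rmrp (chromosome 4, 43492785 to 43493059, minus strand) read 10.94 and 11.64 in wild type and 11.63 and 11.59 in Adar2-/- brain. Wild type replicate 1 was low, and the other 3 arrays lay within 0.05 of each other. The genotypes differed by a log2 fold change of 0.32 (SE 0.23, 95% interval -0.25 to 0.89, limma p 0.214, adjusted p 0.872). It was -0.03 without wild type replicate 1 and 0.67 without wild type replicate 2.

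Rpph1 (chromosome 14, 50807447 to 50807771, minus strand) read 12.41 and 12.82 in wild type and 12.38 and 12.66 in Adar2-/- brain. In both genotypes replicate 2 was the higher array, and the groups overlapped. Its log2 fold change was -0.095 (SE 0.18, 95% interval -0.53 to 0.34, limma p 0.612), and it was -0.30 without wild type replicate 1 and 0.11 without wild type replicate 2.

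Terc (chromosome 3, 96414437 to 96414859, minus strand), the RNA template for telomere repeats, read 9.62 and 10.53 in wild type and 9.96 and 10.10 in Adar2-/- brain. Both knockout arrays lay between the 2 wild-type arrays. The log2 fold change was -0.045 (SE 0.29, 95% interval -0.76 to 0.67, limma p 0.881), so that a change of up to 0.76 downward stays within the interval. Without wild type replicate 1 it was -0.50 and without wild type replicate 2 it was 0.41.

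The Y RNAs differed widely between the wild-type arrays and by at most 0.01 between the knockout arrays. Rny1 (chromosome 6, 47788069 to 47788180, minus strand) read 9.80 and 11.17 in wild type and 10.84 and 10.85 in Adar2-/- brain. Rny3 (chromosome 6, 47781624 to 47781725, plus strand), its neighbour on the opposite strand, read 9.74 and 10.65 in wild type and 10.39 on both knockout arrays. For both RNAs wild type replicate 1 was lowest, wild type replicate 2 was highest, and the knockout lay in between. The log2 fold change of Rny1 was 0.36 (SE 0.41, 95% interval -0.66 to 1.38, limma p 0.420), and the file marks its probes as able to cross-hybridize. That of Rny3 was 0.20 (SE 0.29, 95% interval -0.51 to 0.90, limma p 0.521). Leaving out wild type replicate 1 turned the sign, to -0.33 for Rny1 and -0.26 for Rny3. Leaving out wild type replicate 2 gave 1.05 for Rny1 (limma p 0.0026, adjusted p 0.781) and 0.65 for Rny3 (limma p 0.00912, adjusted p 0.781).

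Both Rn7sk clusters had the smallest range over the arrays. The cluster at the RefSeq gene (chromosome 9, 78175302 to 78175633, minus strand) read 13.41 and 13.46 in wild type and 13.44 and 13.51 in Adar2-/- brain. A second cluster with this symbol, on chromosome 15 (93234363 to 93234700, plus strand), read 13.68 and 13.80 in wild type and 13.70 and 13.76 in the knockout. Neither cluster separated the genotypes, and the 4 arrays spanned 0.10 and 0.12. Their log2 fold changes were 0.04 (95% interval -0.22 to 0.30, limma p 0.714) and -0.01 (95% interval -0.28 to 0.26, limma p 0.929). These signals lay close to the top of the scale, which ended at 13.73 to 13.86 on the 4 arrays. Only 5 to 9 clusters read higher than the chromosome 9 cluster, and 1 or 2 higher than the one on chromosome 15. A difference in RNA may be compressed there, so neither a steady level nor the lack of a genotype difference can be read from these clusters. Both are marked as able to cross-hybridize, so the signal cannot be assigned to one copy.

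Vaultrc5 (chromosome 18, 36801763 to 36802107, plus strand) was the member with the lowest p. It read 7.97 and 8.55 in wild type and 7.69 and 7.89 in Adar2-/- brain, so that the groups did not overlap, the nearest arrays of the 2 genotypes being 0.08 apart. Adar2-/- brain had a log2 fold change of -0.47 (SE 0.21, 95% interval -0.98 to 0.04, limma p 0.0647, adjusted p 0.835), a 1.39-fold difference. The unadjusted p was below 0.05 in 4 of 13 alternatives, among them median centring of each array (limma p 0.0418) and an intensity trend of the variance (limma p 0.0495), and the adjusted p was at least 0.795 in all 13. Without wild type replicate 1 the value was -0.76 (limma p 0.0164), and without wild type replicate 2 it was -0.18 (limma p 0.305).

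The long nuclear RNAs differed little between arrays. Malat1 (minus strand, chromosome 19, 5795690 to 5802671) read 12.40 and 12.31 in wild type and 12.54 and 12.51 in Adar2-/- brain. Neat1 (minus strand, chromosome 19, 5824708 to 5845478) read 7.70 and 7.62 in wild type and 7.82 and 7.90 in the knockout. For both, the knockout arrays were the higher ones and did not overlap with wild type. The log2 fold change was 0.17 for Malat1 (SE 0.10, 95% interval -0.088 to 0.43, limma p 0.157) and 0.20 for Neat1 (SE 0.11, 95% interval -0.062 to 0.46, limma p 0.110). The direction was kept in all 13 alternative settings for each of the 2 clusters, with 0 of 13 reaching an unadjusted p below 0.05.

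A second cluster carries the symbol Malat1 but lies on the plus strand inside the gene (chromosome 19, 5797562 to 5798549). It read 9.09 and 9.79 in wild type and 9.71 and 10.39 in Adar2-/- brain. Replicate 2 stood above replicate 1 by 0.70 in wild type and by 0.68 in the knockout, which the minus-strand cluster did not show. Its log2 fold change of 0.61 was the largest of the 11 clusters (SE 0.30, 95% interval -0.14 to 1.36, limma p 0.0932, adjusted p 0.839), and it was 0.26 without wild type replicate 1 and 0.96 without wild type replicate 2. The file assigns this cluster to the same RefSeq transcript as the minus-strand cluster, and which strand its probes read was not settled here.

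**Figure D2:**
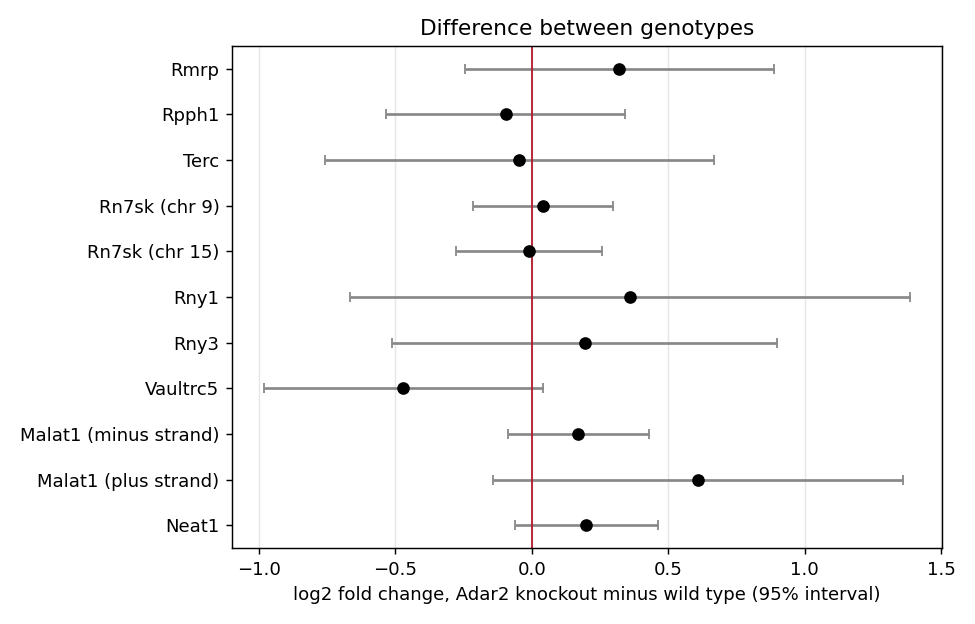
Log2 fold change of Adar2 knockout against wild type (x axis) for the 11 member clusters (y axis), with bars for the 95% interval of the limma fit. All 11 intervals include 0; the narrowest are those of Rn7sk, Malat1 on the minus strand and Neat1, and the widest is that of Rny1, from -0.66 to 1.38.

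The difference within wild type was larger than the difference between genotypes in 9 of 11 member clusters, against 57.5% of all clusters. Wild-type arrays lay at least 0.5 apart in 6 of 11 clusters, Rmrp, Terc, Rny1, Rny3, Vaultrc5 and the plus-strand Malat1 cluster, against 4.32% of all clusters. Knockout arrays lay that far apart only in the plus-strand Malat1 cluster, 1 of 11, against 5.05% of all clusters. In 4 of 11 clusters, Rmrp, Rny1, Rny3 and plus-strand Malat1, wild type replicate 1 was at least 0.5 below each of the other arrays. This was seen in 0.553% of all clusters, and in 0.599% of the 9177 clusters with a mean signal no lower than that of the dimmest member. Among named small RNAs the share was higher, with 8 of 36 Snora (22.2%), 1 of 9 Scarna (11.1%), 5 of 95 Snord (5.26%) and 1 of 19 Rnu clusters (5.26%). The limit of 0.5 was set after the values were seen. These counts describe single arrays and not a condition.

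Small RNAs with Snora, Snord or Rnu symbols were mostly lower in wild type replicate 1 than in replicate 2, whereas the wider annotation classes were not. Clusters named Snora, the H/ACA box small nucleolar RNAs, had a median difference of 0.33, with 27 of 36 higher in replicate 2. The C/D box RNAs named Snord had 0.20, with 82 of 95 higher, and the spliceosomal RNAs named Rnu had 0.36, with 17 of 19 higher. The median of the 11 member clusters was 0.58, and that of 17788 mRNA clusters was 0. The 1318 clusters described as small nucleolar RNAs, most of them without such a symbol, also had a median of 0 (638 higher in replicate 2). The 1140 described as small nuclear RNAs had -0.03 (514 higher). These wider classes were dim, with median signals of 4.405 to 4.505 and 3.29 to 3.35 on the arrays, near the Y-linked signals. The Snora, Snord and Rnu classes were brighter, with medians from 6.79 to 9.51. The part of signal level in this contrast was not tested. Between the knockout arrays these 3 named classes went the other way, with replicate 2 minus replicate 1 at -0.17 for Snora, -0.25 for Snord and -0.41 for Rnu, while the members had a median of 0.07. The 9 Scarna clusters, small Cajal body RNAs, showed little of either, with medians of 0.07 in wild type and -0.01 in the knockout. The profile most like that of Rny1, the member with the widest range, was that of Snora34, which read 9.71 and 10.85 in wild type and 10.77 and 10.68 in the knockout. Centred on their means, the 2 profiles were 0.20 apart in Euclidean distance over 4 arrays, the smallest among 26677 clusters with another symbol. Defb2, a defensin gene with signals near background, was next at 0.27, and Snora15 followed at 0.32. With 4 values per profile, a search of this size finds close matches in any case. A link between Rny1 and these genes was not tested.

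**Figure D3:**
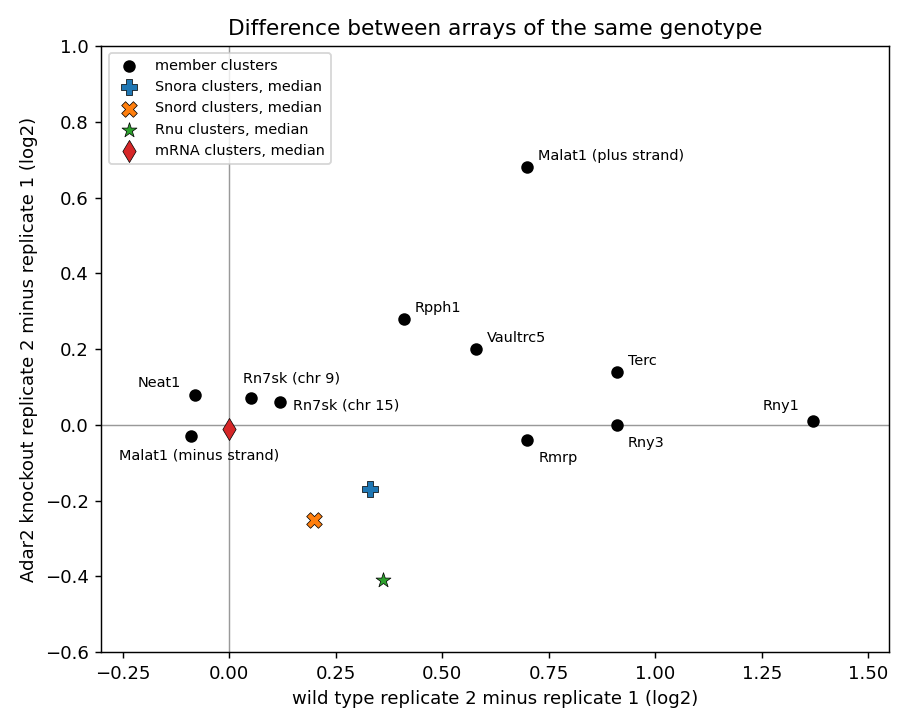
Log2 difference of replicate 2 minus replicate 1 in wild type (x axis) and in Adar2 knockout (y axis), with a black point per member cluster and coloured symbols for medians of other RNA classes. Rny1 lies farthest to the right at 1.37 and close to 0 on the y axis, the plus-strand Malat1 cluster is high on both axes, and mRNA clusters have their median at 0.

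Towards the genotypes, 32 of 36 Snora clusters had a log2 fold change above 0 (median 0.30), against 50.8% of all clusters. So did 18 of 19 Rnu clusters (median 0.44) and all 9 Scarna clusters (median 0.42). Median signals of Snora were 7.785 and 8.345 in wild type and 8.48 and 8.37 in the knockout. Those of Rnu were 6.79 and 7.15 against 7.75 and 7.06, and those of Scarna 8.67 and 9.16 against 9.22 and 8.98. These medians also differed within genotypes, and for Rnu and Scarna knockout replicate 2 lay below wild type replicate 2. Of the wider classes, 854 of 1318 small nucleolar and 654 of 1140 small nuclear RNA clusters were above 0. The Snord clusters were divided, with 45 above and 50 below 0 (median -0.04). Among the members, Rpph1, Terc, Vaultrc5 and the chromosome 15 Rn7sk cluster had values below 0, although Rpph1 was at 0.0125 and that Rn7sk cluster at 0.0288 after quantile normalization, and Terc was at 0.0045 after cyclic loess normalization. Whether the members differ from those classes was not tested.

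Tissue markers were set beside these values for each array. The log2 of the summed signal of 8 pituitary clusters was 8.50 and 8.05 in wild type and 11.2 and 10.4 in the knockout, and 3 of the 8 clusters had an unadjusted limma p below 0.05. The hormone genes with the highest signals in the knockout were Prl, at 6.55 and 4.99 in wild type and 10.11 and 9.66 in the knockout, and Gh, at 6.30 and 5.68 in wild type and 9.95 and 8.36 in the knockout. The log2 of the summed signal of 5 salivary gland clusters was 12.9 in Adar2 knockout replicate 1 and 7.32 to 7.47 on the other arrays. Most of it in Adar2 knockout replicate 1 came from Bpifa2, at 12.61. Dcpp1, Amy1 and Klk1 were also highest on that array, but Prol1 read 3.17 to 3.36 on all arrays. Olfactory bulb markers, 5 clusters, summed to 9.07 in Adar2 knockout replicate 2 and to 9.67 to 9.78 elsewhere. Red blood cell markers, 5 clusters, ranged from 9.18 to 9.97 and were lowest in Adar2 knockout replicate 1. The sum of 5 choroid plexus clusters was lowest in wild type replicate 1, the array low in the Y RNAs, with 12.9 against 13.1 to 13.3. It came mostly from Ttr, at 12.76 and 13.12 in wild type and 12.94 and 13.07 in the knockout. Folr1, Clic6 and Prlr were also lowest in wild type replicate 1, while Kl was lowest in Adar2 knockout replicate 1. The part of these tissues in the member values was not tested.

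Genes next to the members were compared in the same fit, to see whether a member's values were shared by its surroundings. Of 20 clusters within 20 kb that carry another symbol, 1 had an unadjusted p below 0.05, which is no more than the 5.95% of all clusters, and 0 passed the adjusted threshold. Their log2 fold changes ran from -0.32 to 0.29. The one was Parp2, which encodes a poly(ADP-ribose) polymerase of DNA repair and starts on the other side of the Rpph1 upstream stretch printed above. Parp2 (chromosome 14, 50807946 to 50821300, plus strand) read 7.71 and 7.67 in wild type and 7.29 and 7.45 in Adar2-/- brain. Both knockout arrays were the lower ones, with a log2 fold change of -0.32 (SE 0.11, limma p 0.0299, adjusted p 0.834), and 8 of 13 alternatives left its unadjusted p below 0.05. Rpph1 did not separate the genotypes in this way.

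Ccdc107, a coiled-coil gene, has a cluster on the plus strand (chromosome 4, 43492900 to 43495921) that overlaps the Rmrp cluster by 160 bases in the coordinates of the file. It read 7.88 and 8.47 in wild type and 8.43 and 8.50 in the knockout. Wild type replicate 1 was low and the other arrays were close together, as for Rmrp on the opposite strand. The RefSeq gene starts at 43493340, beyond the end of Rmrp, and whether the cluster reads Rmrp itself was not tested. The difference between genotypes for Ccdc107 was 0.29 (SE 0.20, limma p 0.202).

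**Figure D4:**
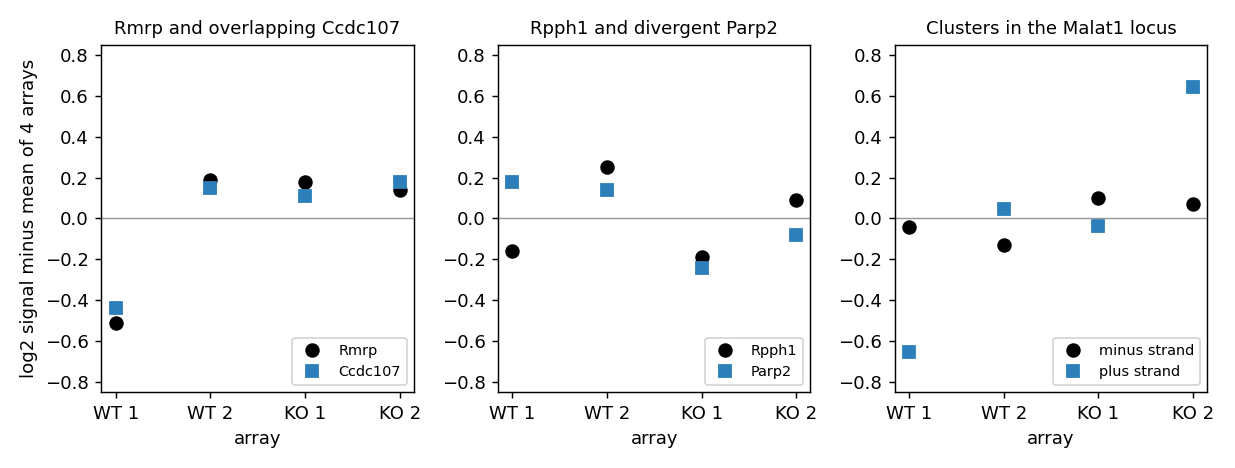
Log2 signal minus the mean of the 4 arrays (y axis) on each array (x axis; WT, wild type; KO, Adar2 knockout) for 3 pairs of clusters. Rmrp and Ccdc107 are both low on wild type 1, Parp2 is lower on both knockout arrays while Rpph1 is not, and the plus-strand Malat1 cluster spans a range of 1.30 while the minus-strand one spans 0.23.

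The protein partners of the RNAs were then examined in 7 lists. Of 77 genes, 76 were found, in 86 clusters with a median log2 fold change of -0.025. An unadjusted p below 0.05 was reached by 6 of 86 clusters, 2 higher and 4 lower in the knockout, and 0 passed the adjusted threshold. Among all clusters 3.64% were higher and 2.31% lower at that unadjusted p, which together is close to the share in the lists. Of the 6 clusters, Naf1 had such a p in all 13 alternatives, Snapc1 in 10, Hnrnpk in 9, Shq1 in 8 and Nono in 6 of 13, and Srsf6 in 2 of 12.

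The enzymes that use Rmrp and Rpph1 had 0 of 12 clusters with an unadjusted p below 0.05 and a median of -0.01, the largest value being 0.22 for Rpp25l (0.12 to 0.32 with 1 array left out). In the telomerase list 2 of 8 clusters had an unadjusted p below 0.05, both lower. Naf1, an assembly factor of H/ACA particles, to which Terc belongs, read 7.55 and 7.59 in wild type and 7.15 and 7.21 in Adar2-/- brain. This is a log2 fold change of -0.39 with an SE of 0.10 (limma p 0.00973, adjusted p 0.834). Shq1, another assembly factor of these particles, read 7.07 and 6.85 in wild type and 6.57 and 6.63 in the knockout, with a value of -0.36 (SE 0.12, limma p 0.0259, adjusted p 0.834). Without wild type replicate 1 the value for Shq1 was -0.25 (limma p 0.101). In both genes the knockout arrays lay below the wild-type arrays. The core proteins of the particle, Dkc1, Nop10, Nhp2 and Gar1, had values from -0.015 to 0.095, and Tert, the catalytic subunit, had 0.16.

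The 7SK and P-TEFb list, with Hexim1, Larp7, Mepce and Cdk9, had 0 of 7 clusters with an unadjusted p below 0.05. The largest value there was -0.20, for Hexim2, a protein that inhibits P-TEFb, with a range of -0.30 to -0.10 when 1 array was left out. The Y RNA and vault list had 0 of 7, and its largest value was -0.12 (SE 0.13, limma p 0.362), for Parp4, a vault protein, with a range of -0.24 to -0.01 when 1 array was left out. Trove2, which encodes Ro60, read 8.61 and 8.64 in wild type and 8.62 and 8.58 in the knockout. Mvp, the major vault protein, read 7.02 and 7.25 in wild type and 7.27 and 7.03 in the knockout, so that neither gene separated the genotypes.

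In the paraspeckle list 2 of 13 clusters had an unadjusted p below 0.05. Nono, a core paraspeckle protein, read 9.74 and 9.45 in wild type and 9.19 and 9.28 in Adar2-/- brain, with a log2 fold change of -0.36 (SE 0.13, limma p 0.0381, adjusted p 0.834). Without wild type replicate 1 the value for Nono was -0.21 (limma p 0.150) and without wild type replicate 2 it was -0.51. Its limma p was 0.0569 after quantile normalization and 0.0591 after cyclic loess normalization. Its partners Sfpq and Pspc1 had values of 0.11 and -0.05. The other cluster was one of 3 with the symbol Hnrnpk, on the strand opposite to the gene, at 5.83 and 6.35 in wild type and 6.65 and 6.83 in the knockout (log2 fold change 0.65, SE 0.19, limma p 0.0151, adjusted p 0.834). It was 0.39 without wild type replicate 1 (limma p 0.0712). The Hnrnpk cluster on the gene's own strand had -0.15 (limma p 0.242). Among 13 nuclear speckle clusters 1 had an unadjusted p below 0.05, a dim Srsf6 cluster that can cross-hybridize and lies opposite to the gene, with signals of 4.45 to 4.71 and a log2 fold change of 0.25 (limma p 0.0495). Under the 3 other scalings its limma p was 0.09 to 0.0973. The second Srsf6 cluster had -0.13 (limma p 0.353).

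The machinery that transcribes most of the small RNAs had 1 of 26 clusters with an unadjusted p below 0.05, and a median of -0.055. It was Snapc1, a subunit of the complex that binds the promoters of small nuclear RNA genes. Snapc1 read 8.48 and 8.68 in wild type and 8.15 and 7.81 in Adar2-/- brain, so that the knockout arrays were the lower ones. Their difference of -0.60 on the log2 scale had an SE of 0.15 (limma p 0.00849, adjusted p 0.834). Clusters of the other subunits on their gene's own strand ran from -0.30 for Snapc5 to 0.065 for 1 of the 2 Snapc3 clusters (a Snapc4 cluster on the opposite strand had 0.20), and Maf1, a repressor of RNA polymerase III, had -0.025.

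**Figure D5:**
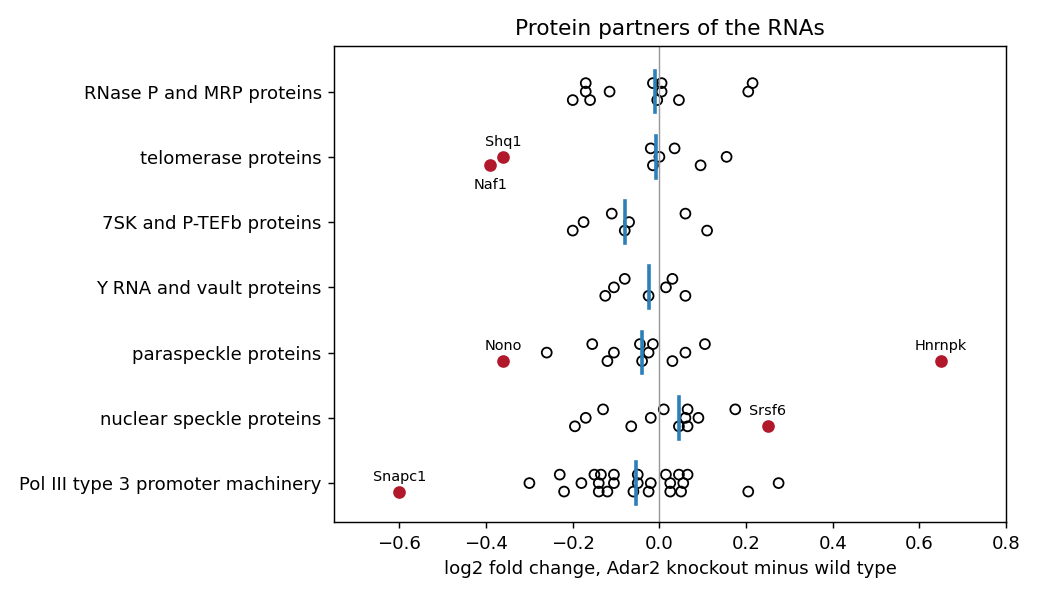
Log2 fold change of Adar2 knockout against wild type (x axis) for the clusters of 7 lists of protein partners (y axis; Pol III, RNA polymerase III), with a blue bar at the median of each list. Filled red points have an unadjusted limma p below 0.05, 6 of 86 clusters, and none of them passed after adjustment over all clusters.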

How the data were processed

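The processing notes name Affymetrix Expression Console and RMA, which corrects background, normalizes arrays to a common distribution and summarises probes. The authors deposited one log2 signal per transcript cluster and array, to 2 decimals. Columns with the authors' own means, ratios, folds and p-values were not used. The genome build is not given in the sources used here; cluster positions are those of the file, and 1 cluster of each member lies at its gene in RefSeq GRCm38.p6, with ends that can differ.

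Genotypes were compared by lmFit and eBayes of limma 3.58.1 (R 4.3.3), in a two-sided test without covariates (prior SD 0.125, 3.79 prior degrees of freedom), and p-values were adjusted by Benjamini-Hochberg over all 33793 clusters. Intervals are 95%. The number of arrays limits the precision, and a log2 difference of compressed array signals may understate the change in RNA. The code of the fit was checked on simulated data drawn under the fit's own assumptions, which is no test of the design. Of all clusters, 4954 are marked as able to cross-hybridize.

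The members and lists were chosen with earlier results of these data known. Named were all member clusters, Adarb1, in each partner list the clusters with an unadjusted p below 0.05 or else the one with the largest value, neighbours within 20 kb with such a p, the 3 clusters most like the member of widest range, and marker values; other named genes were picked after their values were seen. An alias first written for Rpp25l belonged to Caap1 and was replaced from the RefSeq table. Alternatives were 3 scalings, a filter on dim clusters (mean above 4.22), cross-hybridizing clusters left out, the replicate block, other variance models and each array left out. Analyses used Python 3.11.15, pandas 2.3.3 and matplotlib 3.10.9.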

Additional observations from a re-analysis of the deposited data

How the results depend on the processing

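Each result was computed again under the alternatives. For the 11 member clusters, 0 passed the adjusted threshold in all of them, and of their single values 117 kept their direction and side of the unadjusted threshold, 9 kept the direction with an unadjusted p now below 0.05, 13 had the opposite sign, and 1, chromosome 9 Rn7sk after median centring, was 0. The sign turned at values close to 0 under quantile normalization for Rpph1 (0.0125) and the chromosome 15 Rn7sk cluster (0.0288), and under cyclic loess for Terc (0.0045) and that Rn7sk cluster (0.0342). With 1 array left out at a time, the log2 fold change ranged from -0.03 to 0.67 for Rmrp, -0.30 to 0.11 for Rpph1, -0.50 to 0.41 for Terc, -0.07 to 0.05 for chromosome 15 Rn7sk, -0.33 to 1.05 for Rny1 and -0.26 to 0.65 for Rny3. It ranged from -0.13 to 1.02 for Snora34, -0.31 to 0.75 for Defb2 and -0.19 to 1.01 for Snora15. In these 9 clusters the lowest value was that without wild type replicate 1 and the highest that without wild type replicate 2. A genotype with 1 array left takes its spread from the other genotype.

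Member clusters with an unadjusted p below 0.05 numbered 1 with arrays centred on their median and 1 with an intensity trend of the variance (Vaultrc5 in both), and 0 to 3 with an array left out, against 0 as reported. Clusters with separate groups numbered 4 to 10 with 1 array left out, against 3, by construction, since 1 array overlaps less often with 2. Over all clusters, 15 passed the adjusted threshold without shrinkage of the variance and 0 otherwise, and 1221 to 1801 had an unadjusted p below 0.05 with an array left out, the fewest without wild type replicate 1, against 2009. Partner clusters with such a p numbered 2 to 5 with an array left out, against 6, the fewest without Adar2 knockout replicate 2. Neighbouring clusters with such a p numbered 0 to 3, against 1, and 0 without shrinkage.

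The median log2 fold change of small nucleolar RNAs (0.08) was 0.04 after median centring, 0.0537 after quantile normalization, 0.0543 after cyclic loess and 0.14 without dim clusters. That of small nuclear RNAs (0.04) was 0, 0.0062, 0.0102 and 0.07 in the same order. The cause of these shifts was not tested.

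The labels give replicate numbers, but nothing ties number 1 or 2 to a shared animal, litter or day, and deviations of same-numbered arrays correlated at only 0.052. With the replicate number as a block, 2 member clusters had an unadjusted p below 0.05, Vaultrc5 (limma p 0.0398) and plus-strand Malat1 (limma p 0.00517), both with an adjusted p of 0.795, and the counts were 3 for partners (limma p 0.0518 for Shq1, 0.0766 for Nono and 0.0605 for Srsf6), 0 for neighbours (0.0508 for Parp2) and 1693 for all clusters. One cluster per member, an alternative chosen after seeing the data, left 0 of 9 with such a p.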

Other observations

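Ensembl's class misc_RNA, which takes in copies of structured RNAs of this kind, had 442 clusters in the table. The median of their signals read 4.41 and 4.44 in wild type and 4.51 and 4.52 in Adar2-/- brain, close to the signals of Y-linked genes. Their median log2 fold change was 0.06, with 32 clusters higher and 10 lower at an unadjusted limma p below 0.05. Over all clusters 3.64% were higher and 2.31% lower at that p. Clusters described as small nucleolar RNAs, 1318 in number, had a median of 0.08, with 147 higher and 30 lower at that p. Those described as small nuclear RNAs, 1140 in number, had 0.04, with 76 higher and 41 lower. These classes were dim too, with median signals on the arrays of 4.405 to 4.505 for small nucleolar and 3.29 to 3.35 for small nuclear RNAs.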
